A study of Mus musculus with 60 samples.

Results

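The genes described here are 32 mouse genes of protein folding, quality control and stress signalling in the endoplasmic reticulum (ER), taken by name out of 19460 gene symbols across the deposited tables. They were followed as messenger RNA in cultured hepatocytes and in liver after 2/3 partial hepatectomy (PHX). The 10 chaperones and their cofactors were Hspa5, Hsp90b1, Hyou1, Hspa13, Dnajb9, Dnajb11, Dnajc3, Sdf2l1, Manf and Creld2. The lectin chaperones Calr and Canx, the 5 disulfide and proline isomerases Pdia3, Pdia4, Pdia6, P4hb and Ppib, and the translocon subunits Sec61a1 and Sec61b followed. The 8 genes of ER-associated degradation were Edem1, Herpud1, Sel1l, Syvn1, Derl1, Derl2, Derl3 and Os9, and the 5 sensors and transcription factors were Atf6, Ern1, Xbp1, Creb3l2 and Creb3l3.

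All samples are labelled as wild-type C57BL/6. The cell table held freshly isolated hepatocytes, hepatocytes cultured with IL6, EGF and HGF for 3 days (IL6-iHPCs-D3) or 14 days (IL6-iHPCs-D14) before any passage (P0), and 4 passaged lines of these proliferating, progenitor-like IL6-iHPCs: mouse-1 at passage 10 (P10) and passage 35 (P35), mouse-2 at P10, and clone-1 at P20. The study's text describes a clone-1 line grown from 1 hepatocyte that carried a tdTomato lineage mark, an allele the labels do not give. Each line was also matured for 7 days in a medium with oncostatin M and without IL6, EGF and HGF. Dexamethasone was in both media, at a higher concentration for maturation. The matured cells are called IL6-iMHs. The liver table held normal liver and liver at 5 times after PHX (6 h, 24 h and days 3, 7 and 14) in mice of 8 to 10 weeks, and a further table compared primary hepatocytes with hepatocytes cultured for 7 days with IL6 (IL6-iHPCs-D7) or without it (HCM-Hepa-D7). Every group had 3 samples. The study calls those of the cell table technical repeats, so their p-values measure technical error only, and nothing used here says which liver samples were separate mice, so the spread there may be technical as well.

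Secreted and membrane proteins, which hepatocytes make in large amounts, enter the ER through the Sec61 channel, fold with the help of Hspa5 (BiP), Hsp90b1 (Grp94) and the lectins calreticulin and calnexin, and receive disulfide bonds from the protein disulfide isomerases. Chains that fail to fold are drawn back to the cytosol by the Sel1l-Syvn1 (Hrd1) ligase complex with the derlins, Herpud1, Edem1 and Os9, and are degraded there. When unfolded protein builds up, the sensors Ern1 (IRE1), Atf6 and PERK start the unfolded protein response. Ern1 splices Xbp1 mRNA, Atf6 is cut to release a transcription factor, and PERK reduces translation and raises Atf4. Creb3l3 (CREBH) is a liver-rich relative of Atf6 that acts on acute-phase and lipid genes, and Creb3l2 is a relative known for raising secretory capacity. Gene-level values do not separate spliced from unspliced Xbp1.

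The cell table corresponded to 49.3 to 88.8 M recovered reads per sample and the liver table to 52.0 to 79.2 M, each up to a common factor. Values are FPKM, which are scaled for gene length. P4hb had the most reads of the 32 genes, with medians of 101100 and 98720 per sample in the cell and liver tables. Derl3 had the fewest, with medians of 39 and 148 and a lowest count of 17, so its values are the least precise. Summed hepatocyte markers were 74658 to 80477 FPKM in hepatocytes, 2709 to 16996 in IL6-iHPCs and 59863 to 84907 in IL6-iMHs. In whole liver, fewer cells of a type and less RNA per cell cannot be told apart. The IL6-iHPCs-clone-1 libraries carried Y-linked genes at a summed 33.9 to 38.7 FPKM whereas the IL6-iMHs-clone-1 libraries had them at 0, although both carry the same clone's name. The other passaged lines were at 0 to 0.0157 FPKM, hepatocytes at 5.46 to 7.21 and IL6-iHPCs-D3 and -D14 at 53.4 to 81.4, and the reason for this was not tested. Averages over lines are therefore also given without clone-1. One PHX-D3 library, replicate 2, stood apart as well: its summed PERK-arm genes reached 314 FPKM, against 85.8 and 93.2 in the other day 3 samples.

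Promoter sequence is shown first because 9 of the 26 genes matched in the RefSeq table (assembly GRCm38.p6; 250 bases before to 50 after the start of transcription) hold an ER stress response element (ERSE). The ERSE was searched on both strands as CCAAT, 9 bases of any kind and CCACG, and is known as the element through which Atf6 and the CCAAT-binding factor NF-Y act. It was found in 39 of 32851 mouse promoters, or 0.119%. The element is itself known from ER stress genes, so its share among the 26 was not tested against this figure. The 9 genes were Calr, Canx, Creld2, Derl3, Dnajc3, Hsp90b1, Hspa5, Pdia6 and Syvn1, and Hsp90b1 held 2 copies. ERSE-II, searched as ATTGG, 1 base and CCACG on both strands, was in Dnajb11 and Herpud1 and in 12 of all promoters (0.0365%). The sequence TGACGTGG, searched on both strands for Xbp1 and Atf6, was in none of the 26 genes' windows and in 0.676% of all promoters. CCAAT alone, which every ERSE contains, was in 23 of the 26 genes and in 37.4% of all promoters. A match describes letters in a window and is not a measured binding site.

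The 250 bases before the Hspa5 start (chr2:34771840-34772089, + strand) are printed whole because this gene is the usual reference target of the response. Capitals mark the CCAAT and CCACG ends of the ERSE, whose first base lies 65 bases before the start.
Hspa5: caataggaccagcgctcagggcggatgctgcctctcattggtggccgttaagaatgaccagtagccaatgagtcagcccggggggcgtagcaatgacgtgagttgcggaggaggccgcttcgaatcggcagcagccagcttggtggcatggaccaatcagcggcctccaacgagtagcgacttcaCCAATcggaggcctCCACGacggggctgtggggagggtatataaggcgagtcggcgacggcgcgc

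The element and its flanks are printed for genes with a match that the regeneration results below name, each 5′ to 3′ along the gene's own strand with the element in capitals. Other genes named there have none to print: Dnajb9 held neither element in its window, and Hyou1, Hspa13 and Manf were not matched. In Creld2 (chr15:88819505-88819553, + strand), Derl3 (chr10:75893227-75893275, + strand) and the first Hsp90b1 match (chr10:86705518-86705566, - strand) it lies on the other strand and reads CGTGG, 9 bases, ATTGG. It reads forward in Dnajc3 (chr14:118937812-118937860, + strand), Pdia6 (chr12:17266476-17266524, + strand), Syvn1 (chr19:6046517-6046565, + strand) and the further Hsp90b1 match (chr10:86705623-86705671, - strand). The ERSE-II of Herpud1 (chr8:94386362-94386402, + strand) is printed as the example of ERSE-II, which Dnajb11 holds as well.
Creld2: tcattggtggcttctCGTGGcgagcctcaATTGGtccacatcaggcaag
Dnajc3: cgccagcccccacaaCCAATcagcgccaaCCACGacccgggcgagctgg
Pdia6: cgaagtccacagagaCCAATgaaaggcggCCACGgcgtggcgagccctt
Syvn1: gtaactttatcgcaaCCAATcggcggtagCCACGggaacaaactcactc
Derl3: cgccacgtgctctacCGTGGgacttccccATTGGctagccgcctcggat
Hsp90b1, nearer the start: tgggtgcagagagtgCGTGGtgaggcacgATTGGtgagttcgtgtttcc
Hsp90b1, farther out: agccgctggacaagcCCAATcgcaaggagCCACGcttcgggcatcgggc
Herpud1: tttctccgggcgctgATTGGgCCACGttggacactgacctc

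At 6 h after PHX, 6 of the 8 genes that rose were chaperones, and Derl3 and Derl2 fell. Differences are on the log2(FPKM + 1) scale throughout, and rose or fell means a limma adjusted p under 0.05 over all genes tested together with a change of at least 2-fold. Of the 32 genes 8 rose and 2 fell, where 4.78% of the 11114 liver genes tested rose and 11.5% fell. By role, 6 of the 10 chaperones rose, beside Syvn1 of the degradation genes and Creb3l2 of the sensors, and no isomerase, lectin or translocon subunit passed both thresholds. The median over the 32 genes was 0.12, beside -0.28 over all genes. The table was also scaled by quantile normalization, which gives every sample the same distribution, and by median centring. Counts under these scalings are given because the share of higher genes among all genes called moved by over 10 points. It was 29.3% as deposited, 52.9% after quantile normalization and 55.8% after centring. Quantile normalization gave 8 higher and 1 lower (all genes 6.82% and 6.06%) and centring gave 9 and 1 (7.41% and 5.87%), with 8 and 1 called alike under all 3 scalings (4.77% and 5.74%). Summed Kupffer cell markers were 79.5 to 159 FPKM at 6 h against 206 to 329 in normal liver, with 7 of the 8 lower past both thresholds, and their part in these differences was not tested.

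Dnajb9 (ERdj4), an Hspa5 cofactor and well-known Xbp1 target, had 32.3, 23.9 and 22.2 FPKM in normal liver and 116, 140 and 169 FPKM at 6 h. It rose by 2.39 ± 0.25 (SE, n = 3 and 3, adjusted p = 5.28e-06), the largest rise of the 32 genes, and its groups did not overlap. Creld2, a secreted ER chaperone, went from 33.9, 23.7 and 23.7 FPKM to 49.1, 111 and 126 FPKM, a rise of 1.69 ± 0.37 (adjusted p = 0.0015) in which PHX-6h replicate 1 lay well under the other treated samples. Creb3l2 had 5.05, 2.86 and 3.33 FPKM in normal liver and 15.5, 11.3 and 8.90 FPKM at 6 h, all above every normal sample, and rose by 1.44 ± 0.26 (adjusted p = 0.000365).

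Hspa5 itself, the central ER chaperone that also holds the sensors inactive, was at 338, 253 and 212 FPKM in normal liver and at 502, 720 and 780 FPKM at 6 h, with no overlap. It rose by 1.32 ± 0.22 (adjusted p = 0.000213). The remaining rises were Hspa13 at 1.39, Manf at 1.31, Hyou1 at 1.13 and Syvn1 at 1.10. Without normal liver replicate 2 Hyou1 was at 0.93 and Syvn1 at 0.87, and without PHX-6h replicate 3 Syvn1 was at 0.95, in each case under 2-fold.

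Derl3, a derlin of ER-associated degradation that is abundant in secretory cells, had 6.62, 9.29 and 10.52 FPKM in normal liver and 0.474, 1.47 and 1.10 FPKM at 6 h. It fell by 2.29 (SE 0.71, adjusted p = 0.0142) with all 3 treated samples under all normal ones. Without PHX-6h replicate 1 the fall was 2.08 with an adjusted p of 0.0516. Derl3 is also a plasma cell gene, and summed B and plasma cell markers were 0.356 to 0.489 FPKM at 6 h against 1.73 to 3.28 in normal liver. Their part in the Derl3 value was not tested. Derl2, its relative, had 36.6, 38.3 and 39.1 FPKM in normal liver and 17.2, 17.4 and 19.2 FPKM at 6 h. It fell by 1.04 (SE 0.12, adjusted p = 9.9e-06) as deposited, but by 0.77 after quantile normalization and 0.75 after centring, both under 2-fold.

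The sensors other than Creb3l2 did not pass both thresholds at 6 h. Ern1, the IRE1 kinase and nuclease, was at 5.56, 3.53 and 4.38 FPKM in normal liver and at 1.99, 2.09 and 1.20 FPKM at 6 h, a difference of -0.99 ± 0.26 (adjusted p = 0.00453) just under 2-fold. Xbp1 was at 116, 137 and 214 FPKM in normal liver and at 236, 244 and 266 FPKM at 6 h, a difference of 0.72 (adjusted p = 0.014) that reached 2-fold only after centring, at 1.01. Atf6 was at 8.40, 7.33 and 5.96 FPKM and then 10.99, 10.7 and 12.1 FPKM, a difference of 0.58 (adjusted p = 0.000928). Groups did not overlap for any of these genes, whereas Creb3l3, at 184, 145 and 158 FPKM against 170, 202 and 161 FPKM, overlapped and differed by 0.13 (adjusted p = 0.61).

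**Figure D1:**
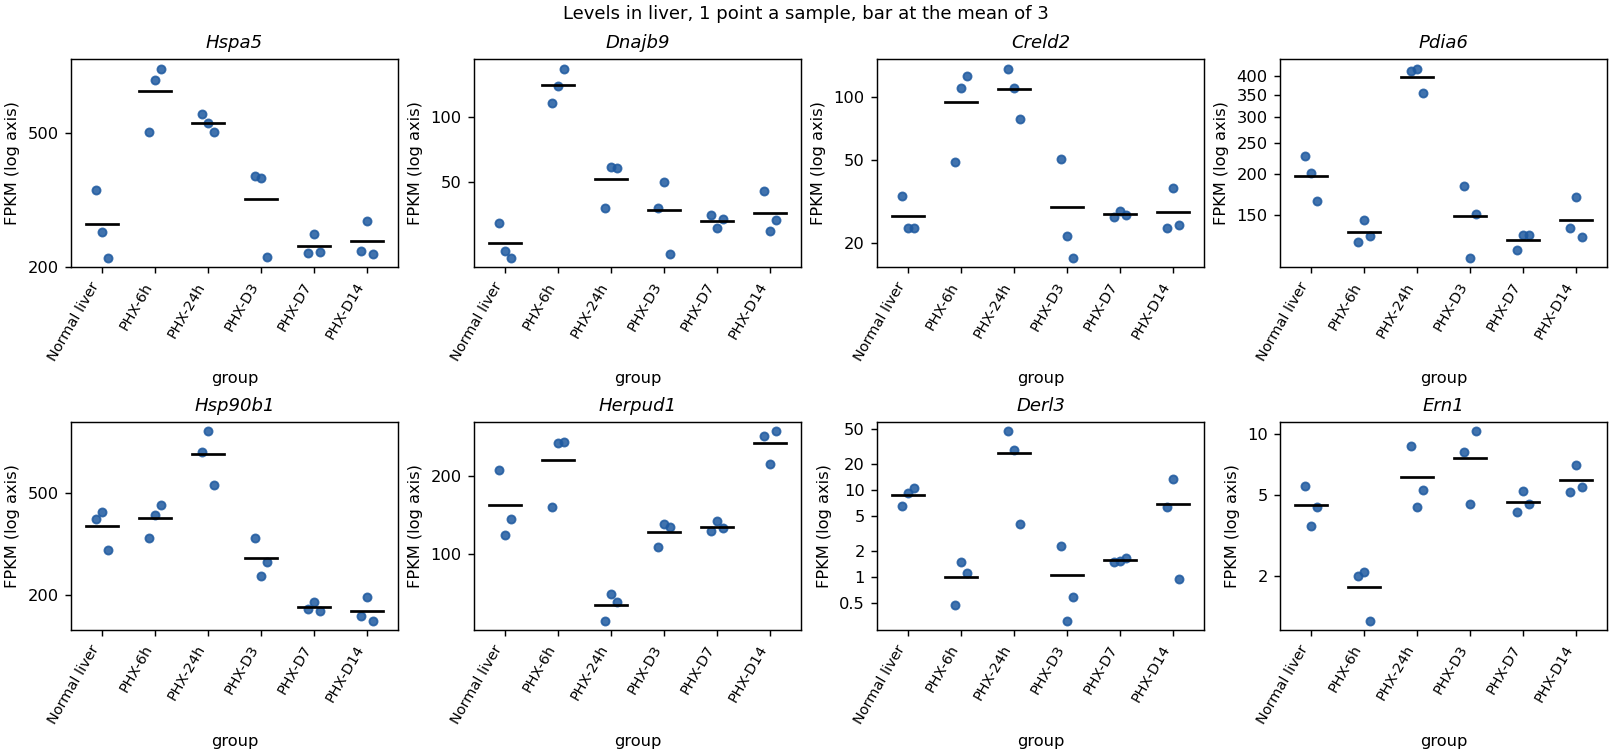
FPKM of 8 ER genes on log axes in each sample of normal liver and of liver at the 5 times after PHX. Points are the 3 samples of a group and bars their mean. Dnajb9 is highest at 6 h (116 to 169 FPKM), Pdia6 at 24 h (353 to 421), Herpud1 is lowest at 24 h (55.7 to 70.7) and Hsp90b1 is lowest at days 7 and 14 (160 to 197).

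At 24 h the positive differences were spread more broadly over the 32 genes, and the genes that rose were again mostly chaperones. Of the 32 genes 7 rose, chaperones and an isomerase, and Herpud1 fell, so 7 and 1, where 3.74% of all genes rose and 4.16% fell. Differences were positive for 29 of the 32 genes, beside 48.2% of all genes, with medians of 0.66 and -0.02. All 10 chaperones and all 5 isomerases had a positive difference, and 6 chaperones and 1 isomerase passed both thresholds. Summed hepatocyte markers were 35810 to 42619 FPKM at 24 h against 53231 to 58202 in normal liver, and summed B and plasma cell markers were 0.354 to 0.646 FPKM with 3 of the 7 at 0 in every sample.

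Creld2 had 137, 111 and 78.9 FPKM at 24 h, each above the highest normal sample, and rose by 1.95 ± 0.37 (adjusted p = 0.00127). Hyou1 (Grp170), the nucleotide exchange factor of Hspa5, was at 35.8, 18.9 and 23.5 FPKM in normal liver and at 79.6, 61.5 and 52.1 FPKM at 24 h, a rise of 1.299 ± 0.26 (adjusted p = 0.00192). Hspa13, an Hsp70-type ER protein, was at 13.3, 11.4 and 9.63 FPKM and then 26.2, 30.1 and 31.9 FPKM and rose by 1.297 ± 0.16 (adjusted p = 6.9e-05). None of these 3 genes had overlapping groups.

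Hspa5 remained above normal liver at 24 h, with 572, 536 and 504 FPKM and a rise of 1.03 ± 0.22 (adjusted p = 0.00308). That rise was close to 2-fold and was 0.9992 without normal liver replicate 2, 0.87 without normal liver replicate 3 and 0.98 without PHX-24h replicate 1. Pdia6, a disulfide isomerase that binds Hspa5 and Ern1, had 227, 202 and 165 FPKM in normal liver and 413, 421 and 353 FPKM at 24 h, without overlap. Its rise of 1.00 likewise stood at the threshold and was 0.88 without normal liver replicate 3, 0.97 without PHX-24h replicate 1 and 0.96 without PHX-24h replicate 2. Manf rose by 1.24 and Dnajc3 (p58IPK), which lowers PERK activity, by 1.18.

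Herpud1, which brings substrates and partners to the Hrd1 complex, was the gene that went the other way. Its values were 210, 119 and 137 FPKM in normal liver, 152, 268 and 271 FPKM at 6 h and 55.7, 70.7 and 65.5 FPKM at 24 h. It fell at 24 h by 1.23 (SE 0.23, adjusted p = 0.00107), and by 0.99 without normal liver replicate 1, the highest of the normal samples. At day 14 its samples were at 285, 222 and 298 FPKM, all above normal liver, with a difference of 0.82 that did not reach 2-fold.

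Among the sensors at 24 h no gene passed both thresholds. Xbp1 had 269, 251 and 235 FPKM (difference 0.74, adjusted p = 0.0207), Atf6 9.77, 9.78 and 11.5 FPKM (0.47, adjusted p = 0.00788) and Ern1 8.70, 4.37 and 5.27 FPKM (0.34, adjusted p = 0.315). Creb3l3, at 162, 171 and 185 FPKM, overlapped normal liver and differed by 0.09 (adjusted p = 0.755).

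Direct comparison of 24 h with 6 h gave 5 higher and 2 lower of the 32 genes, where 5.19% of all genes were higher and 1.53% lower. After quantile normalization the counts were 4 and 3 (2.47% and 2.29%), after centring 4 and 3 (2.23% and 2.96%), and 4 and 2 were called alike under all 3 scalings (2.2% and 1.46%). Higher at 24 h under all scalings were Derl3 by 3.29, Pdia6 by 1.57, Sdf2l1 by 1.56 and Ern1 by 1.34. Lower under all scalings were Herpud1, which fell by 1.79, and Dnajb9, which fell by 1.45. Pdia3, a partner isomerase of the lectin chaperones, was higher by 1.00 as deposited, and by 0.92 without PHX-6h replicate 1, 0.97 without PHX-24h replicate 1 and 0.94 without PHX-24h replicate 2. All 5 isomerases had a positive difference, with a median of 0.95 beside 0.24 over all genes. The Derl3 samples at 24 h were far apart, at 47.4, 28.6 and 4.04 FPKM.

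**Figure D2:**
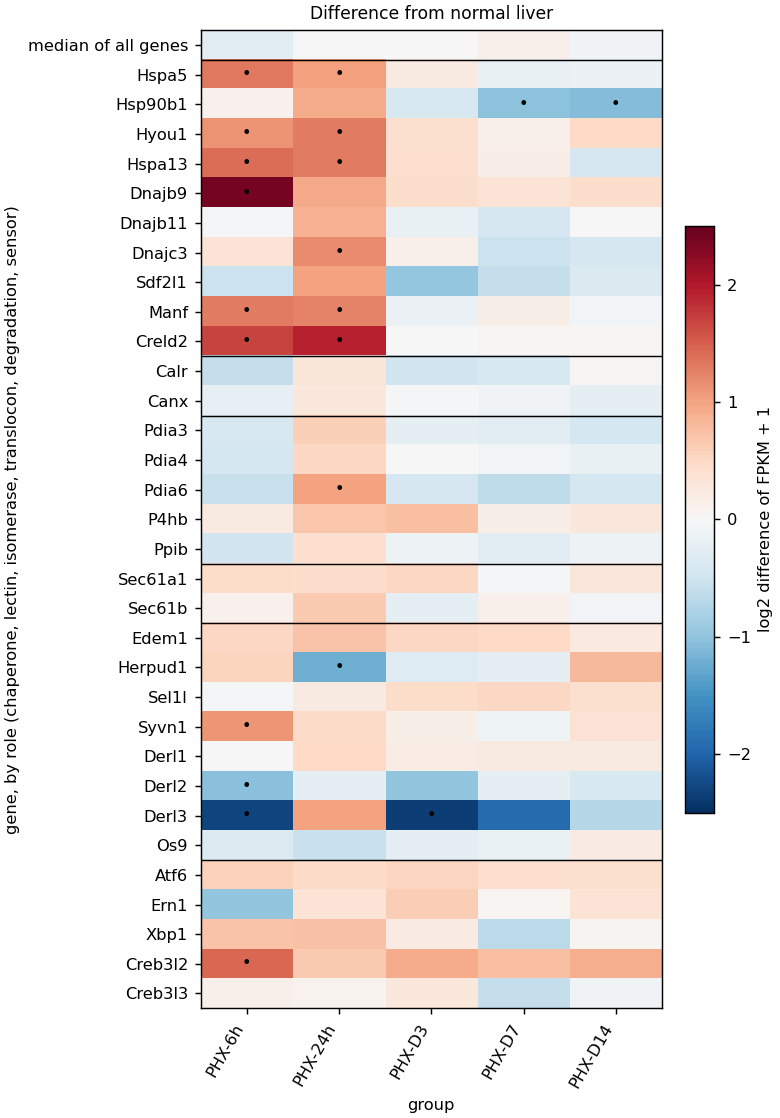
Heat map of the log2 difference from normal liver for the 32 ER genes, grouped by role, at the 5 times after PHX. The top line gives the median of all genes tested and a dot marks a gene past both thresholds. Chaperones carry 6 dots at 6 h and 6 at 24 h, and few genes carry one from day 3 on.

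The 9 genes with an ERSE in the promoter window were described separately at both early times. At 24 h, 4 of them rose, all 9 had a positive difference and their median was 1.00, with a range from 0.26 to 1.95. Among the 17 genes with a window but no ERSE none rose, Herpud1 fell and the median was 0.59. Of these 17 differences 14 were positive, in a range from -1.23 to 1.01. Over all genes 3.74% rose and 4.16% fell. After quantile normalization Dnajb9 at 1.01 and Sdf2l1 at 1.10, both without an ERSE, passed both thresholds. The rises of Hspa5 and Pdia6, which hold an ERSE, stood at the 2-fold threshold, as given above. At 6 h the 9 genes had 3 rises and 1 fall with a median of 0.10, and the 17 others 2 rises and 1 fall with a median of -0.03. Over all genes 4.78% rose and 11.5% fell at 6 h. The other 6 genes, Hyou1, Hspa13, Manf, Sec61a1, Derl1 and Atf6, were not matched and are in neither set, although Hyou1, Hspa13 and Manf were 3 of the 7 rises at 24 h and 3 of the 8 at 6 h. Dnajb11, with an ERSE-II like Herpud1, differed by 0.88 at 24 h, under 2-fold. The split was made after the values were known and rests on few genes, so it is given without a test.

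From day 3 on, few of the 32 genes passed both thresholds against normal liver, and few of all genes did at days 3 and 14. At day 3 none rose and Derl3 fell, where 3.33% of all genes rose and 2.49% fell. Derl3 was at 2.30, 0.318 and 0.585 FPKM at day 3, all under normal liver, and fell by 2.34 (SE 0.71, adjusted p = 0.0237). Leaving out 1 library at a time ended that call for normal liver replicate 2 (adjusted p = 0.0669), normal liver replicate 3 (0.0754), PHX-D3 replicate 2 (0.0644) and PHX-D3 replicate 3 (0.0511), with falls between 2.08 and 2.30. Without PHX-D3 replicate 2, the library noted above, Derl2 was at -1.10 and became the 1 gene past both thresholds. Without normal liver replicate 1, Creb3l2 at 1.11 and Derl2 at -1.02 joined Derl3, and without PHX-D3 replicate 1, Creb3l2 at 1.07 and Sdf2l1 at -1.32 did. PHX-D3 replicate 2 also held the highest P4hb value, 1407 FPKM against 774 and 655, and the highest Creb3l3 value, 287 FPKM against 174 and 147, and without it the Creb3l3 difference went from 0.27 to -0.01. Hspa5 at day 3 was at 373, 367 and 214 FPKM, spanning the range of normal liver (difference 0.23, adjusted p = 0.458). Xbp1 differed by 0.21 (adjusted p = 0.492), Atf6 by 0.54 (0.00458) and Ern1 by 0.61 (0.0827).

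Hsp90b1, the ER form of Hsp90, was the gene that fell late. Its samples were at 396, 420 and 299 FPKM in normal liver, 722, 867 and 538 FPKM at 24 h, 177, 189 and 175 FPKM at day 7 and 166, 197 and 160 FPKM at day 14. The late samples lay under every normal sample. It fell by 1.02 at day 7 (SE 0.19, adjusted p = 0.000798) and by 1.08 at day 14 (SE 0.19, adjusted p = 0.00133), the latter by 0.99 after centring. The day 7 fall was 0.97 without normal liver replicate 1 and 0.93 without replicate 2, and the day 14 fall 0.98 without normal liver replicate 2. At day 14, Creb3l2 at 1.09 and Herpud1 at 1.06 joined Hsp90b1 without normal liver replicate 1, and Creb3l2 at 1.08 did without PHX-D14 replicate 2. At day 7 summed Kupffer cell markers were 1166 to 1704 FPKM against 206 to 329 in normal liver and endothelial markers 61.7 to 94.001 against 32.2 to 39.1, and their part in the day 7 values was not tested.

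At day 7 none of the 32 genes rose and 1 fell, where 7.81% of all genes rose and 1.03% fell. After quantile normalization 0 and 2 were called (5.22% and 1.99%) and after centring 0 and 2 (5.47% and 1.88%), the further gene being Derl3 at 1.47, 1.54 and 1.65 FPKM. At day 14 the counts were 0 and 1 (0.981% and 2.0% of all genes), 0 and 1 after quantile normalization (1.15% and 1.27%) and 0 and 0 after centring (1.12% and 1.36%). Xbp1 at day 7 was at 93.3, 92.1 and 97.6 FPKM, under every normal sample, with a difference of -0.67 (adjusted p = 0.0356) that was less than 2-fold. Hspa5 differed by -0.19 at day 7 and -0.15 at day 14 (adjusted p = 0.558 and 0.721). Atf6 differed by 0.41 and 0.40 (adjusted p = 0.0177 and 0.034), Ern1 by 0.05 and 0.34 (0.912 and 0.416), Creb3l3 by -0.59 and -0.09 (0.0408 and 0.818) and Xbp1 at day 14 by 0.07 (0.878). The Ern1 difference at day 7 turned negative after quantile normalization and after centring.

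Other genes of the same pathways were counted from lists that share no gene with the 32. At 24 h, 3 of 13 other translocation genes rose, led by the translocon-associated subunit Ssr3 at 1.25, with Dnajc10 at 1.00 alone of 16 other folding genes and Edem3 at 1.08 alone of 12 other degradation genes. Over all genes 3.74% rose at 24 h. Of 10 genes of the PERK arm, the branch that acts through Atf4, 3 rose at 6 h with Atf3 highest at 2.41, 3 at day 7 with Atf3 at 5.27 and 2 at day 14 with Atf3 at 5.32. In the same order 4.78%, 7.81% and 0.981% of all genes rose. These counts cover rises only, and not every gene of the list went up. Trib3 was at 5.95, 9.02 and 3.71 FPKM in normal liver and at 1.85, 1.91 and 0.83 FPKM at 6 h. At 24 h it was at 0.927, 1.49 and 1.20 FPKM. Ddit3 averaged 5.66 FPKM at 6 h against 6.11 in normal liver. At day 7 Atf4 averaged 63.9 FPKM against 63.6 in normal liver, and Ddit3 5.78 against 6.11. The list is named for this branch, and PERK activity itself was not measured.

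In hepatocytes cultured with IL6 the ER genes differed from fresh hepatocytes in both directions, against a large rise of most genes on the deposited scale. The cell table holds no culture without IL6, so IL6 and culture itself cannot be told apart in it. At day 3 the median of all genes was 1.14 above hepatocytes and the median of the 32 genes was -0.46. Of the 32, 6 rose and 10 fell, where 53.9% of the 12328 genes tested in the cell table rose and 12.1% fell. Quantile normalization gave 4 and 9 (25.8% and 22.3% of all genes) and centring 1 and 23 (18.6% and 33.7%). Called alike under all 3 scalings were 1 rise and 9 falls (18.3% and 11.5%). The rise was Creb3l2, and the falls were Sdf2l1, Creb3l3, P4hb, Derl2, Sec61b, Ppib, Derl3, Creld2 and Manf.

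Creb3l2 had 1.11, 1.84 and 1.21 FPKM in hepatocytes and 37.4, 35.6 and 36.2 FPKM at day 3. It rose by 3.98 ± 0.10 (n = 3 and 3, adjusted p = 8.28e-25), which is 2.85 above the median of all genes. Ern1 was at 4.28, 6.01 and 2.98 FPKM and then 22.6, 19.4 and 21.4 FPKM, a rise of 2.06 as deposited that was 0.79 after quantile normalization and 0.61 after centring. Atf6 was at 4.83, 5.93 and 5.25 FPKM and then 22.99, 20.03 and 23.1 FPKM, a rise of 1.86 that was 0.65 and 0.41 under the same scalings. Hspa13, Dnajb9 and Syvn1 also rose on the deposited scale only, and after centring Dnajb9 was at -0.03 and Syvn1 at -0.19.

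Sdf2l1, a component of the large Hspa5 chaperone complex, had 88.2, 73.3 and 81.0 FPKM in hepatocytes and 11.8, 15.7 and 10.3 FPKM at day 3. It fell by 2.604 (SE 0.14, adjusted p = 5.03e-17), and by 3.74 relative to the median of all genes. Creb3l3 was at 172, 167 and 157 FPKM and then 38.0, 42.0 and 38.0 FPKM and fell by 2.05 (SE 0.05, adjusted p = 3.45e-25). P4hb, a protein disulfide isomerase, was at 677, 660 and 691 FPKM and then 169, 172 and 165 FPKM and fell by 2.00 (SE 0.06, adjusted p = 1.46e-23). Each of these genes had day 3 samples far under all hepatocyte samples. Hspa5 was at 263, 268 and 255 FPKM and then 277, 357 and 285 FPKM, a difference of 0.22 that was 1.28 after quantile normalization and -1.24 after centring, so its direction was not settled. Xbp1, at 206, 201 and 201 FPKM and then 158, 187 and 154 FPKM, differed by -0.29 as deposited and 0.50 after quantile normalization.

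At day 14 of culture, 10 of the 32 genes were higher than in hepatocytes and 3 lower, where 50.0% and 12.9% of all genes were. Quantile normalization gave 9 and 4 (25.3% and 22.6%), centring 1 and 14 (18.4% and 31.7%), and 1 and 3 were called alike under all 3 scalings (18.2% and 12.2%). Creb3l2 was at 55.8, 50.4 and 52.9 FPKM, the highest level of this gene beside that of mouse-2, and rose by 4.51 ± 0.10 (adjusted p = 3.95e-26). Creb3l3 (36.2, 37.8 and 35.5 FPKM) fell by 2.15, Sdf2l1 (26.9, 28.9 and 23.4 FPKM) by 1.58 and Derl2 (12.6, 12.6 and 13.2 FPKM against 38.0, 36.2 and 42.5 in hepatocytes) by 1.53, all 3 under all scalings. Syvn1, the Hrd1 ubiquitin ligase, had 10.9, 12.8 and 7.03 FPKM in hepatocytes and 47.8, 46.0 and 42.9 FPKM at day 14, a rise of 2.09 that was 1.43 after quantile normalization and 0.77 after centring. Dnajb9, at 12.8, 12.6 and 11.9 FPKM and then 39.6, 38.2 and 42.6 FPKM, rose by 1.62 as deposited and by 0.31 after centring. Among the sensors, Ern1 (14.0, 12.9 and 13.4 FPKM) rose by 1.45, with 0.14 after centring. Atf6 (11.8, 11.3 and 12.4 FPKM) rose by 1.02 as deposited, by 0.96 without hepatocyte replicate 1 and 0.99 without IL6-iHPCs-D14 replicate 3, and turned to -0.17 after quantile normalization and -0.29 after centring. Hspa5, at 473, 478 and 482 FPKM, was 0.86 higher as deposited, 2.04 after quantile normalization and -0.45 after centring, and Xbp1, at 262, 261 and 268 FPKM, 0.38, 1.31 and -0.93.

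From day 3 to day 14 of culture most of the 32 differences were positive and 6 passed both thresholds. All genes had a median of -0.16 and the 32 genes one of 0.66, and 27 of the 32 differences were positive beside 36.6% of all genes. Of the 32, 6 rose and none fell, where 5.12% of all genes rose and 5.05% fell. Quantile normalization gave 14 and 0 (6.5% and 4.53%), centring 12 and 0 (6.42% and 3.45%), and 6 and 0 were called alike under all 3 scalings (4.63% and 3.32%). P4hb had 169, 172 and 165 FPKM at day 3 and 510, 500 and 486 FPKM at day 14 and rose by 1.56. Calr, the soluble lectin chaperone, went from 245, 215 and 231 FPKM to 593, 619 and 573 FPKM and rose by 1.37. Herpud1 went from 44.7, 41.5 and 50.7 FPKM to 117, 107 and 104 FPKM and rose by 1.24. None of these groups overlapped. Pdia3 rose by 1.03, Sdf2l1 by 1.02 and Hsp90b1 by 1.01, and these 3 were the calls that 1 library could end: Pdia3 was at 0.9988 or 0.9979 without IL6-iHPCs-D3 replicate 1 or 3, Sdf2l1 at 0.99 or 0.90 without the same libraries and 0.96 without IL6-iHPCs-D14 replicate 2, and Hsp90b1 at 0.9997 or 0.98 without IL6-iHPCs-D14 replicate 2 or 3. All 5 isomerases and 9 of the 10 chaperones had a positive difference. Summed stellate cell markers were 25.03 to 26.7 FPKM at day 14, 0.677 to 1.16 at day 3 and 0.641 to 0.979 in hepatocytes, and their part in these differences was not tested. Among the sensors, Atf6 was at -0.84, Ern1 at -0.61 and Creb3l3 at -0.10.

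**Figure D3:**
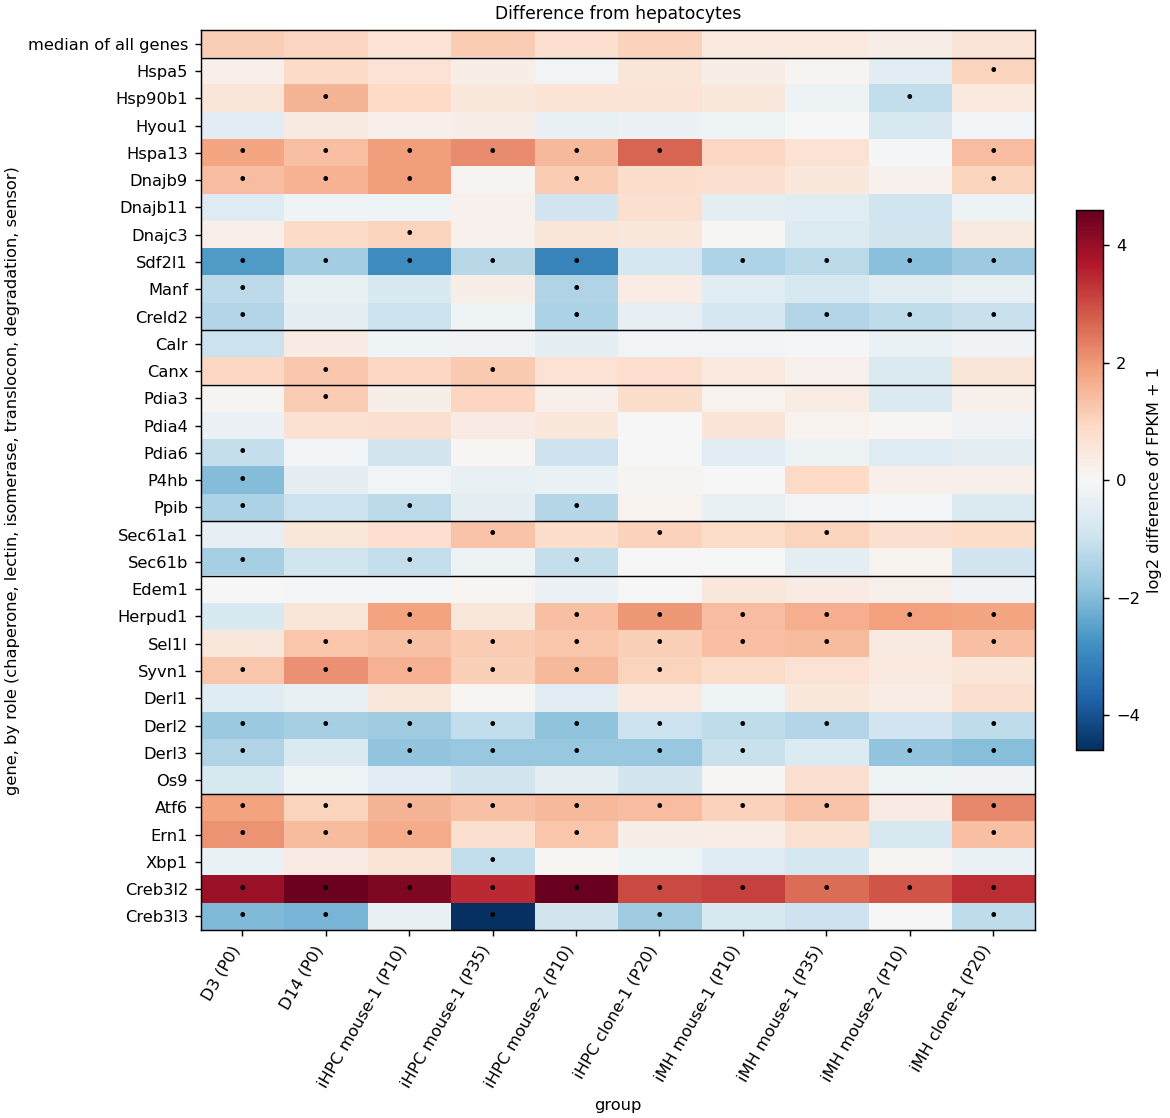
Heat map of the log2 difference from hepatocytes, on the deposited scale, for the 32 ER genes grouped by role in IL6-iHPCs at day 3 and day 14, the 4 passaged IL6-iHPC lines and the 4 IL6-iMH lines. The top line gives the median of all genes tested and a dot marks a gene past both thresholds. Creb3l2 is above hepatocytes in all 10 columns, and Derl2 and Sdf2l1 are below them in all 10.

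In the passaged lines the ER genes kept a mixed pattern. Averaged over the 4 lines, 8 of the 32 genes were higher than in hepatocytes and 4 lower, where 48.1% and 11.3% of all genes were. Quantile normalization gave 5 and 5 (22.7% and 18.9%), centring 1 and 17 (15.9% and 28.9%), and 1 and 4 were called alike under all 3 scalings (15.7% and 10.8%). Without clone-1 the counts were 8 and 4 as well. The gene higher under all scalings was Creb3l2, at 3.83 ± 0.08 (n = 12 and 3, adjusted p = 4.65e-27), with line means between 18.4 and 54.8 FPKM. The 12 samples are technical repeats of 4 lines, of which mouse-1 at P10 and at P35 share a mouse, so this SE leaves out variation between lines. Lower under all scalings were Sdf2l1 at -1.999, Creb3l3 at -1.89, Derl3 at -1.75 and Derl2 at -1.41.

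By line, Creb3l2 differed from hepatocytes by 4.28 (mouse-1 at P10), 3.44 (mouse-1 at P35), 4.56 (mouse-2) and 3.03 (clone-1). Derl3 was at -1.83, -1.74, -1.73 and -1.73 in the same order, with every IL6-iHPC sample between 0.320 and 0.634 FPKM against 4.38, 4.36 and 3.26 FPKM in hepatocytes. Those values lie under the added 1 FPKM, which holds the log2 differences of the lines close together. Summed B and plasma cell markers, cells in which Derl3 is also made, were 8.52 to 9.42 FPKM in hepatocytes and at most 0.327 FPKM in these lines, and their part in the Derl3 value was not tested. Derl2 was at -1.64, -1.13, -1.85 and -1.01. Creb3l2 upward and Derl2 and Derl3 downward were the genes called in all 4 lines under all 3 scalings, where 7.95% of all genes were called upward and 7.53% downward in this way. Sdf2l1 varied more, from 8.04 to 14.4 FPKM at P10 of mouse-1 and mouse-2 to 45.0, 45.6 and 51.2 FPKM in clone-1, where its difference was -0.76. On the deposited scale Hspa13, Sel1l, Syvn1 and Atf6 were also higher in all 4 lines, so 5 of the 32 were higher and 2 lower in all 4 and 12 were called in no line, beside 31.4%, 7.99% and 20.6% of all genes. After centring the average of Sel1l was -0.02 and that of Syvn1 0.08. Hspa13 (13.8 to 39.5 FPKM against 4.31, 5.16 and 4.74 in hepatocytes) was at 2.07 on average, with 0.99 after quantile normalization and 0.83 after centring. Atf6 (13.9 to 17.7 FPKM) was at 1.45, with 0.37 and 0.21. Ern1, at 1.01 as deposited, was at 0.81 without hepatocyte replicate 3 and at 0.98 or 0.99 without clone-1 replicate 1 or 2, and turned to -0.13 and -0.23 under the other scalings. Dnajb9, also at 1.01, was at 0.98 without hepatocyte replicate 3, 0.9955 without mouse-2 replicate 2 and 0.9925 without clone-1 replicate 1, with 0.27 after quantile normalization and -0.23 after centring. Hspa5 was at 0.35 as deposited and -0.89 after centring, and Xbp1 at -0.15 and, after quantile normalization, 0.37.

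**Figure D4:**
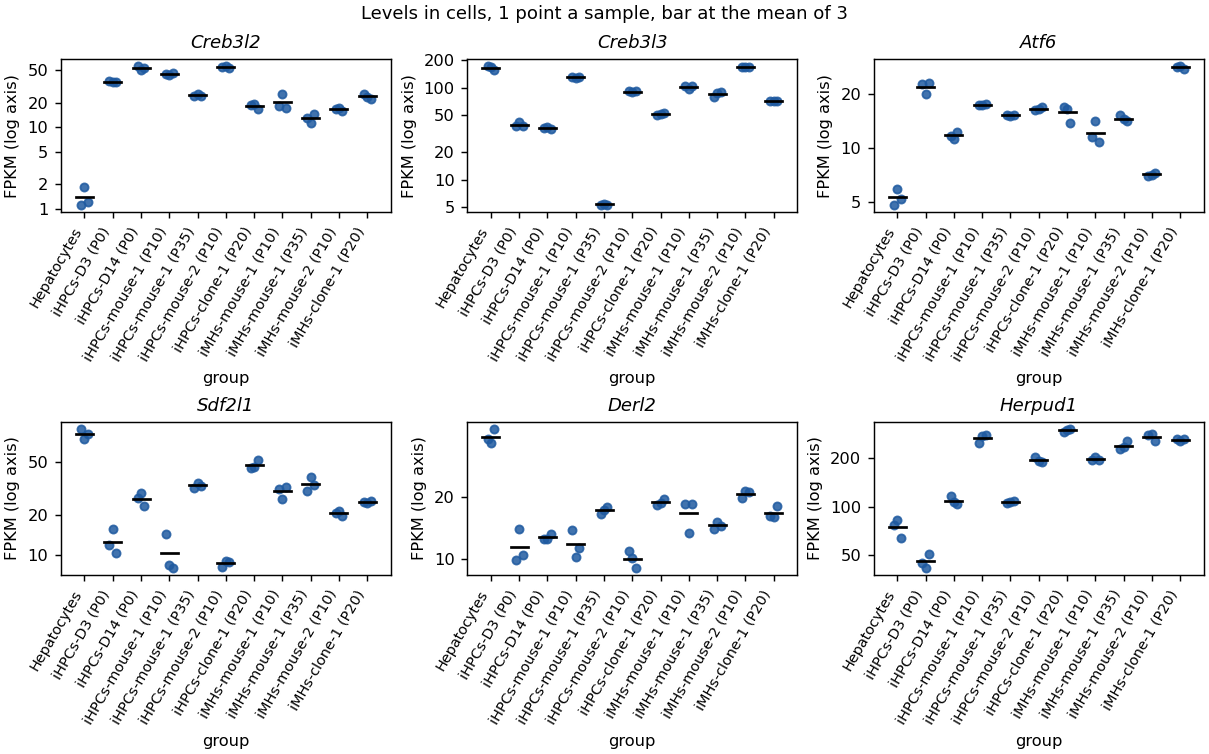
FPKM on log axes of Creb3l2, Creb3l3, Atf6, Sdf2l1, Derl2 and Herpud1 in each of the 3 samples of the 11 groups of the cell table, with a bar at the group mean. Creb3l2 rises from at most 1.84 FPKM in hepatocytes to 11.4 FPKM or more in all cultured samples, and Creb3l3 is lowest in IL6-iHPCs-mouse-1 (P35), at 5.30 to 5.50 FPKM.

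Maturation of IL6-iHPCs into IL6-iMHs raised summed hepatocyte markers in all 4 lines but none of the ER genes passed both thresholds in the same direction in every line. On average Creb3l3 rose and Hspa13 fell, so 1 and 1 of the 32, where 6.68% of all genes rose and 21.4% fell. Quantile normalization gave 1 and 0 (9.61% and 8.89%), centring 3 and 0 (14.7% and 6.19%), and 1 and 0 were called alike under all 3 scalings (6.37% and 6.16%). Without clone-1 the counts were 1 and 4, as Creb3l2 at -1.22, Ern1 at -1.15 and Dnajc3 at -1.08 then fell besides Hspa13. With the 4 line means as replicates, paired by line, Hspa13 remained called and Creb3l3, at 1.19, did not (adjusted p = 0.237). Of these 4 line means 2 are mouse-1 at P10 and P35, so they are not independent.

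Creb3l3 differed between the lines. It was at 130, 128 and 132 FPKM in IL6-iHPCs-mouse-1 (P10) and 104, 96.5 and 103 FPKM in the matching IL6-iMHs, but at 5.30, 5.50 and 5.36 FPKM in IL6-iHPCs-mouse-1 (P35) and 79.0, 86.9 and 89.7 FPKM after maturation. The changes were -0.36, 3.75, 0.88 for mouse-2 and 0.46 for clone-1, so the average of 1.19 rests mostly on the P35 line. Hspa13 fell in the average by 1.32 (SE 0.06, adjusted p = 3.02e-18) with line values from -0.97 to -1.54, and by 0.89 after quantile normalization and 0.77 after centring. Ern1 went both ways, by -1.38 and -2.02 in the P10 lines of mouse-1 and mouse-2, -0.06 at P35 and 1.10 in clone-1. The clone-1 groups before and after maturation differed in Y-linked genes, as given above. Whether the clone-1 values compare the same cells was not tested, and this limit also holds for counts over all 4 lines. None of the 32 genes was called in the same direction in all 4 lines and 13 were called in none, where 1.95% of all genes were higher and 3.33% lower in all 4 and 32.0% were called in none. The average differences of Hspa5 (-0.13), Xbp1 (-0.24) and Atf6 (-0.22) were under 2-fold and turned positive after centring.

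Against hepatocytes, the matured cells still differed in some of the genes that the IL6-iHPCs did. Over the 4 lines 4 of the 32 were higher and 4 lower, where 24.8% and 7.79% of all genes were. Quantile normalization gave 2 and 4 (12.8% and 10.9%), centring 2 and 9 (9.94% and 15.9%), and 2 and 4 were called alike under all 3 scalings (9.6% and 7.4%). Higher under all scalings were Creb3l2 at 3.00 ± 0.08 (n = 12 and 3, adjusted p = 4.26e-24) and Herpud1 at 1.69 ± 0.06 (adjusted p = 4e-21). The 12 samples are technical repeats of 4 lines, of which those of mouse-1 share a mouse, so each SE leaves out variation between lines. Herpud1 had 194 to 282 FPKM in every IL6-iMH sample against 77.0, 82.6 and 63.7 FPKM in hepatocytes. The primary hepatocytes of the day 7 table, given below, lay inside that IL6-iMH range. The Herpud1 rise therefore depends on the hepatocyte group taken as reference. Lower under all scalings were Sdf2l1 at -1.55, Derl3 at -1.36, Derl2 at -1.15 and Creld2 at -1.08. Sdf2l1 had 19.6 to 38.4 FPKM in the IL6-iMH samples, all under the lowest hepatocyte sample of 73.3. Atf6 was higher by 1.24 as deposited, by 0.91 without clone-1, and by 0.58 and 0.54 under the other scalings. Creb3l3 was at -0.70, Ern1 at 0.42, Xbp1 at -0.39 and Hspa5 at 0.22, none of them 2-fold on the deposited scale. Ern1 turned to -0.21 after quantile normalization and -0.27 after centring, and Hspa5 to -0.47 after centring. By line, Creb3l2 upward and Sdf2l1 downward were called in all 4 lines under all 3 scalings, where 5.14% and 4.92% of all genes were. On the deposited scale 17 of the 32 genes were called in no line, beside 45.6% of all genes.

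Mouse-1 was sampled at both P10 and P35, and Creb3l3 differed most of the 32 genes between these passages. In IL6-iHPCs, 1 of the 32 genes was higher and 4 were lower at P35, where 24.8% and 8.94% of all genes were. Quantile normalization gave 1 and 9 (14.3% and 13.6%), centring 1 and 7 (13.8% and 14.7%), and 1 and 4 were called alike under all 3 scalings (13.7% and 8.82%). Creb3l3 was lower by 4.36. Dnajb9 had 48.3, 49.3 and 51.1 FPKM at P10 and 13.7, 13.4 and 13.9 FPKM at P35 and was at -1.79, and its regulator Xbp1 had 301, 326 and 322 FPKM and then 91.8, 93.7 and 91.3 FPKM and was at -1.77. Herpud1 was at -1.32. Without P10 replicate 1 the count was 8, as Ern1 (-1.0013), Manf (1.08) and Pdia6 (1.04) joined these genes. Sdf2l1 went the other way, from 14.4, 8.47 and 8.04 FPKM to 32.0, 34.8 and 32.6 FPKM, at 1.64. Of the 10 PERK-arm genes 7 were lower at P35 and none higher, led by Chac1 at -2.21. The 2 passages are 1 line each, so passage and line history cannot be told apart.

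The change with maturation differed between P35 and P10 of mouse-1 for 11 of the 32 genes. By the interaction test, 7 had a more positive change at P35 and 4 a more negative one, where 9.65% and 24.1% of all genes did. Quantile normalization gave 8 and 1 (14.1% and 14.2%), centring 8 and 1 (15.1% and 13.4%), and 7 and 1 were called alike under all 3 scalings (9.49% and 13.1%). Herpud1 changed by -0.44 with maturation at P10 and 1.16 at P35, Xbp1 by -1.23 and 0.32, and Dnajb9 by -1.18 and 0.36. Sdf2l1 changed by 1.49 at P10 and 0.03 at P35. The PERK arm had 7 of 10 genes with a more positive change at P35, led by Chac1 at 3.67, and none with a more negative one.

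**Figure D5:**
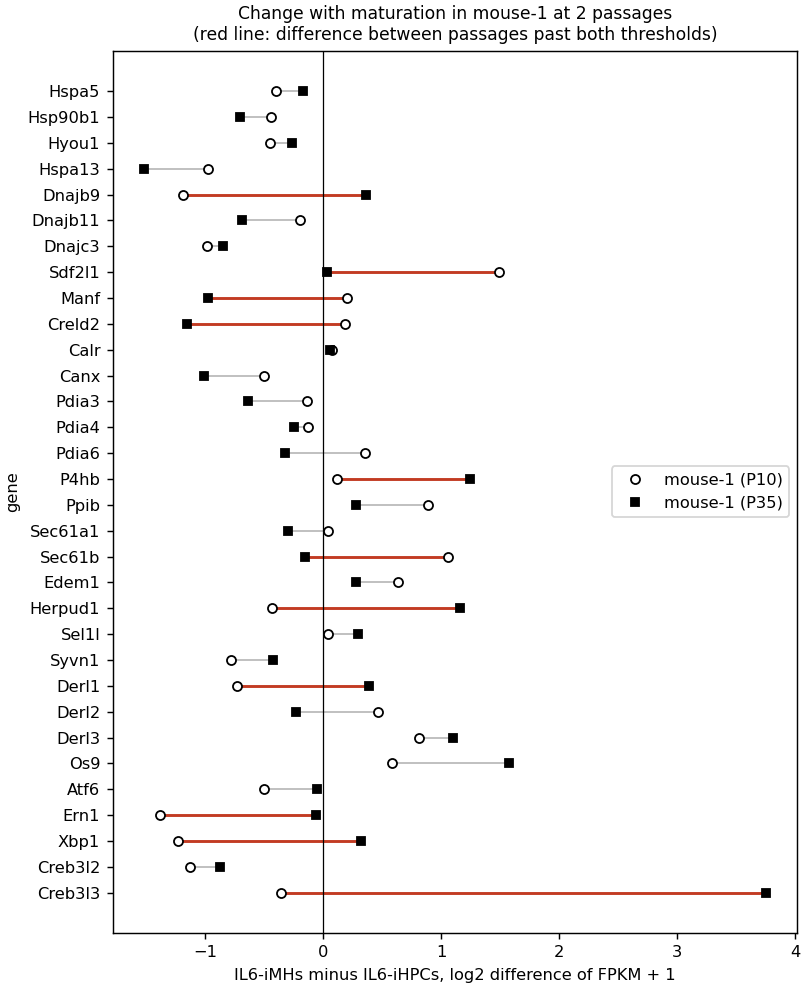
Log2 difference between IL6-iMHs and IL6-iHPCs of mouse-1 for the 32 ER genes, with an open circle for P10 and a square for P35. A red line joins the pair where the interaction passed both thresholds. Creb3l3 spans the widest gap, from -0.36 to 3.75, and Sdf2l1, Creld2, Sec61b and Manf have their P35 square to the left of the circle.

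The other ER lists moved with culture in both directions too, on the deposited scale. At day 3, 5 of 16 other folding genes rose and 3 fell, with Dnajc10 at 2.43 and Fkbp2 at -2.39, 4 of 13 translocation genes rose and 3 fell, with Sec63 at 2.02 and Ssr4 at -3.12, and 6 of 12 degradation genes rose and 1 fell, with Edem3 at 2.57. Over all genes 53.9% rose and 12.1% fell. Quantile normalization gave 2 and 7 for folding, 4 and 3 for translocation and 4 and 1 for degradation (all genes 25.8% and 22.3%). The PERK arm was more uniform: 9 of 10 genes rose at day 3, led by Asns at 4.58, 8 at day 14, 9 in the passaged lines and 6 in IL6-iMHs, and none fell in any of these comparisons. In the same order 53.9%, 50.0%, 48.1% and 24.8% of all genes rose. At day 3, 8 of the 10 rose after quantile normalization. With maturation 1 of its genes, Nupr1, fell by 1.19 and none rose, where 21.4% of all genes fell and 6.68% rose.

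In the day 7 table, of which 480 gene symbols were analysed here, 3 of the 32 genes were listed. Herpud1 was at 225, 230 and 230 FPKM in primary hepatocytes, 111, 119 and 107 FPKM with IL6 and 95.4, 97.3 and 96.8 FPKM without it. Derl1 was at 36.5, 34.1 and 34.9 FPKM, 64.9, 80.1 and 70.9 FPKM and 64.4, 57.0 and 58.7 FPKM in the same order, and Sel1l, the scaffold of the Hrd1 complex, at 26.2, 27.3 and 25.5, 21.95, 16.9 and 20.8, and 12.6, 16.6 and 14.1 FPKM. In these primary hepatocytes Sel1l was above its mean of 12.95 FPKM in the hepatocytes of the cell table. Herpud1 was likewise above every hepatocyte sample there, and the reason for this was not tested. With IL6 against without, Sel1l differed by 0.44, Derl1 by 0.25 and Herpud1 by 0.21 (adjusted p = 0.0034, 0.012 and 0.0028). All 3 differences were positive and none reached 2-fold, so 0 and 0 of these genes were called, where 4.71% of 276 genes tested rose and 0.725% fell.

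Across all groups, the genes differed widely in how far they moved. The ratio of the highest to the lowest group mean ran from 1.77 to 39.6 in the cell table, with a median of 3.49, and from 1.4 to 26.3 in the liver table, with a median of 2.43. Canx was the steadiest in liver and Edem1 in the cell table. Ranked by group mean, neighbouring groups of Hspa5 overlapped in 4 of 5 pairs in liver and 5 of 10 pairs in the cell table, and those of Creld2 in 5 of 5 and 7 of 10, so the order of neighbours is often within the spread of the samples.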

How the data were processed

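Libraries were made from poly(T)-selected RNA. The processing notes name TopHat 1.4.1 and Cufflinks 1.3.0 with the mm10 build. The authors deposited FPKM (fragments per kilobase and per M mapped fragments) per gene symbol in 3 tables (cells, liver, day 7). That unit was inferred from the values. Read totals were recovered from the steps of low values, up to a common factor.

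Values were taken as log2(FPKM + 1) for genes that reached 1 FPKM in no fewer than 3 samples, a filter that all 32 genes passed in the cell and liver tables, and were fitted by limma 3.58.1 (R 4.3.3, trend) with all groups of a table sharing the spread. p-values were adjusted over all genes tested by Benjamini-Hochberg. Called means adjusted p under 0.05 and 2-fold or more. Quantile normalization, median centring, a pseudocount of 0.1, filters of 5 FPKM or none, folds of 1.5 or none, a replicate block and leaving out each replicate were alternatives; a voom fit on recovered reads was added after the data were seen. The script was tested on simulated data. Tables and figures were made with Python 3.11.15, pandas 2.3.3, numpy 2.4.6 and matplotlib 3.10.9.

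Per-sample values were given for the 3 largest rises and falls past both thresholds in each comparison with hepatocytes or normal liver and between IL6-iMHs and IL6-iHPCs, and always for Hspa5, Xbp1, Atf6, Ern1 and Creb3l3. The genes and lists were chosen with earlier results of these data known. Samples sharing a replicate number did not deviate together: the median correlation was -0.016 over 165 pairs in the cell table, -0.055 over 45 pairs in liver and -0.096 over 9 pairs at day 7. No replicate pair agreed within counting noise. Promoter sequences are from RefSeq (GRCm38.p6), in which 26 of the 32 genes were matched.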

Additional observations from a re-analysis of the deposited data

Results flagged for a closer look

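Of the 32 genes, 11 were picked out because their change from IL6-iHPCs to IL6-iMHs differed between P35 and P10 of mouse-1 by limma's test of that difference, with an adjusted p under 0.05 and at least 2-fold. The difference, P35 minus P10, was 4.11 for Creb3l3, which changed by -0.36 at P10 and 3.75 at P35. It was 1.59 for Herpud1, 1.55 for Xbp1, 1.55 for Dnajb9, 1.32 for Ern1, 1.13 for P4hb and 1.11 for Derl1. It was -1.46 for Sdf2l1, -1.34 for Creld2, -1.21 for Sec61b and -1.18 for Manf. Creld2, Sec61b and Manf were no longer 2-fold after quantile normalization (-0.87, -0.74 and -0.83) or centring (-0.95, -0.82 and -0.79), and the other 8 stayed past both thresholds. Each passage is 1 line with 3 technical repeats, so the tests do not cover variation between lines. Groups of 3 samples were not tested for a single sample far from the others.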

How the results depend on the processing

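Counts of called genes depended most on the fold required. With no fold, the adjusted p alone called 31 at D3, 30 at D14, 28 for D14 against D3, 29 in passaged IL6-iHPCs, 29 for maturation, 29 in IL6-iMHs against hepatocytes, 28 for P35 against P10, 23 for the interaction, 21 at PHX-6h, 21 at 24h, 6 at PHX-D3, 8 at PHX-D7, 7 at PHX-D14, 19 for 24 h against 6 h and 3 at day 7 of culture. At 1.5-fold the counts were 21 for D14 against D3, 19 in passaged lines, 9 for maturation, 13 in IL6-iMHs, 14 for P35 against P10, 16 at 24h, 4 at PHX-D3, 5 at PHX-D7, 3 at PHX-D14 and 16 for 24 h against 6 h. Quantile normalization gave 14 for D14 against D3, 1 for maturation, 10 for P35 against P10 and 2 at PHX-D7, and centring 12 for D14 against D3, 3 for maturation, 8 for P35 against P10, 2 at PHX-D3, 2 at PHX-D7 and 0 at PHX-D14. A pseudocount of 0.1 gave 3 at PHX-D3 and 2 at PHX-D14, and voom 2 and 2. Maturation gave 5 without clone-1 and 1 with line means paired by line. The cause of these shifts was not tested. Replicate numbers were not shown to pair the samples (33 of 165, 7 of 45 and 3 of 9 same-number correlations above 0.1), and a replicate block moved the PHX-D7 count from 1 to 2 and changed no other by over 1.5 times.

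Directions reversed after centring for Hspa5 at D3 (-1.24), D14 (-0.45), in passaged lines (-0.89), with maturation (0.41) and in IL6-iMHs (-0.47), for Atf6 at D14 (-0.29) and with maturation (0.33), for Xbp1 at D14 (-0.93) and with maturation (0.31), and for Ern1 in passaged lines (-0.23), IL6-iMHs (-0.27) and PHX-D7 (-0.16). They reversed after quantile normalization for Xbp1 at D3 (0.50) and in passaged lines (0.37), Atf6 at D14 (-0.17) and with maturation (0.21), and Ern1 in passaged lines (-0.13), IL6-iMHs (-0.21) and PHX-D7 (-0.19), and without clone-1 for Hspa5 in IL6-iMHs (-0.043). Leaving out 1 library reversed Creb3l3 at PHX-D3 (-0.014 without PHX-D3 replicate 2, in a range up to 0.47), Ern1 at PHX-D7 (-0.082 without normal liver replicate 2, -0.03 without PHX-D7 replicate 2, up to 0.19) and at PHX-D14 Hspa5 (0.032 without normal liver replicate 1, down to -0.30), Xbp1 (-0.11 without the same library, -0.18 without PHX-D14 replicate 2, up to 0.32) and Creb3l3 (0.0023 and, without PHX-D14 replicate 3, 0.060, down to -0.20). Of the values above, Atf6 at D14 and Ern1 in passaged lines were called as deposited. Other called genes also turned after centring: Dnajb9 (-0.03) and Syvn1 (-0.19) at D3, Canx (-0.06), Pdia3 (-0.15) and Sel1l (-0.05) at D14, and Dnajb9 (-0.23) and Sel1l (-0.02) in passaged lines.

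Leaving out 1 replicate at a time, counts ran from 16 to 17 at D3, 12 to 15 at D14, 4 to 8 for D14 against D3, 10 to 13 in passaged lines, 2 to 2 for maturation, 8 to 8 in IL6-iMHs, 5 to 8 for P35 against P10, 11 to 12 for the interaction, 9 to 11 at PHX-6h, 6 to 12 at 24h, 0 to 3 at PHX-D3, 0 to 1 at PHX-D7, 0 to 3 at PHX-D14, 6 to 10 for 24 h against 6 h and 0 to 0 at day 7 of culture. Of the values of named genes, 78 of 78 kept direction and call with a filter of 5 FPKM and 80 of 80 with no filter or the replicate block. Depth limits Derl3, at a median of 39 reads per sample in the cell table.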
